A study of Homo sapiens with 8 samples.

Results

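TXNIP, the arrestin-domain genes ARRDC1, ARRDC2, ARRDC3 and ARRDC4, and TXN, the thioredoxin gene, were described in A549, an established cell line from a human lung adenocarcinoma. They were chosen by gene symbol, as genes linked to the MLX branch of the MAX network of transcription factors, and are 6 of the 57820 genes listed in each of 8 RNA sequencing libraries. A549 cells carried either an empty vector or a vector overexpressing MGA, a MAX-binding repressor, in one experiment, and received either siNC, a negative control siRNA, or siMYC, an siRNA that silences MYC, in the other. Each of these 4 groups has 2 libraries, replicates A and B, and all 8 share the cell line and the poly(A) selection of total RNA. Vector and siRNA sequences, doses and times were not analysed here. No label says that replicates A and B were grown apart, so the spread behind each p-value may be technical.

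TXNIP and the ARRDC proteins form the alpha-arrestin family, adaptors that bring NEDD4-type ubiquitin ligases to membrane proteins. TXNIP binds thioredoxin and lowers glucose uptake through the transporters SLC2A1 and SLC2A4. TXNIP and its closest relative ARRDC4 are classic targets of MondoA, the product of MLXIP, which binds MLX, enters the nucleus when glucose phosphates build up and acts on carbohydrate response elements. MYC is known to repress TXNIP, and MYC, MGA and the MXD proteins all need MAX, so these branches share partners and DNA sites.

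Promoters of 3 genes are shown with letter matches to E-boxes, carbohydrate response elements and a FOXO motif, which they carry or lack. All 6 genes matched the RefSeq promoter table (GRCh38.p14, 9 start sites in all, each with 250 bases before and 50 after the start). The stretches below run from 250 to 51 bases before the outermost start site, in the direction of transcription. Capitals mark the E-box CACGTG, the shorter site CACGAG and the FOXO motif GTAAACA, letters chosen after these promoters had been read.
TXNIP: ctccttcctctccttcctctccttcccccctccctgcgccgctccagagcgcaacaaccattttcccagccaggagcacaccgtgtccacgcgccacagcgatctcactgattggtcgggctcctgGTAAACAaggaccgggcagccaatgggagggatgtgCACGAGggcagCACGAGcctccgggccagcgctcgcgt
ARRDC4: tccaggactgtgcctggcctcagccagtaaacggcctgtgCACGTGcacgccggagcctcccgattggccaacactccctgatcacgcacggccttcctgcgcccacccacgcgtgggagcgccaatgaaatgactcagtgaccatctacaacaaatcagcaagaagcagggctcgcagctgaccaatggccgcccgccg
ARRDC3: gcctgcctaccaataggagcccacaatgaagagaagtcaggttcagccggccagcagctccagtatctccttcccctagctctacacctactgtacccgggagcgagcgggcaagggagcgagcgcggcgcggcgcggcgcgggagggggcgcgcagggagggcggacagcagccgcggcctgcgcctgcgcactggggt

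The TXNIP stretch (chr1:145996630-145996829, minus strand) held 2 copies of CACGAG, beginning 88 and 77 bases before the start site. Together they match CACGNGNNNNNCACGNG, the spacing of a carbohydrate response element, which overlaps both copies. On both strands, this paired letter pattern was found in 20 of 35116 RefSeq promoters (0.057%), against 6.78% for CACGAG alone. The same stretch held GTAAACA 124 bases before the start, a match found in 3.42% of promoters. The ARRDC4 stretch (chr15:97960453-97960652, plus strand) held 1 E-box, 210 bases before the start, and 7.26% of promoters hold one. CCAAT, searched on both strands and present in 34.6% of promoters, matched 3 times in ARRDC4 and at 140 and 105 bases before the TXNIP start. It also matched 241 bases before the outermost ARRDC3 start, 80 before the ARRDC1 start and 93 before an ARRDC2 start. A second TXNIP start matched none of these patterns. The outermost ARRDC3 promoter (stretch chr5:91383368-91383567, minus strand) held none of the marked letters, while a second ARRDC3 start had GTAAACA 29 bases before it. A match describes the letters in these windows and not binding.

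The libraries held between 820428 and 2129006 expected counts (reads assigned to genes), fewest in the empty vector and MGA groups. The labels were borne out by the targeted genes. In the MGA libraries MGA took 9.54% and 9.68% of counts, and at most 0.012% elsewhere, and MYC fell from 307 and 313 counts in siNC to 105 and 67 in siMYC (log2 fold change -2.15, SE 0.14, edgeR adjusted p = 2.9e-12). Of 8 lung epithelial markers, NKX2-1, SFTPB and SFTPC were at 0 in every library, and the summed level of the list was 4861 to 8361 TPM, the deposited level corrected for gene length and library size. The endothelial markers CDH5, KDR and VWF were at 0, and so were the leukocyte markers PTPRC and CD3E. Another endothelial marker, PECAM1, was not found by symbol. The summed leukocyte list still ranged from 20.3 to 21.3 TPM in siNC to 170 to 181 TPM in the empty vector group, and the fibroblast list was 8.99 to 28.3 TPM in 6 libraries and 90.7 to 99.6 TPM in siMYC. Of these sums, CD68 made up 174 and 162 TPM in empty vector and 18.3 and 16.4 in siNC, and COL1A1 84.9 and 87.2 in siMYC, while the fibroblast marker DCN was at 0. Their part in the results below was not tested.

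TXN was the most abundant of the 6 in every library and TXNIP and ARRDC4 the least. TXN stood at 807 to 908 TPM in the overexpression experiment and 1014 to 1064 TPM in the siRNA experiment, with only 141 to 174 genes above it. ARRDC1, ARRDC2 and ARRDC3 lay between 13.4 and 96.6 TPM, and TXNIP and ARRDC4 between 0 and 7.61 TPM. ARRDC5, the remaining ARRDC gene, was at 0 counts in all 8 libraries.

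**Figure D1:**
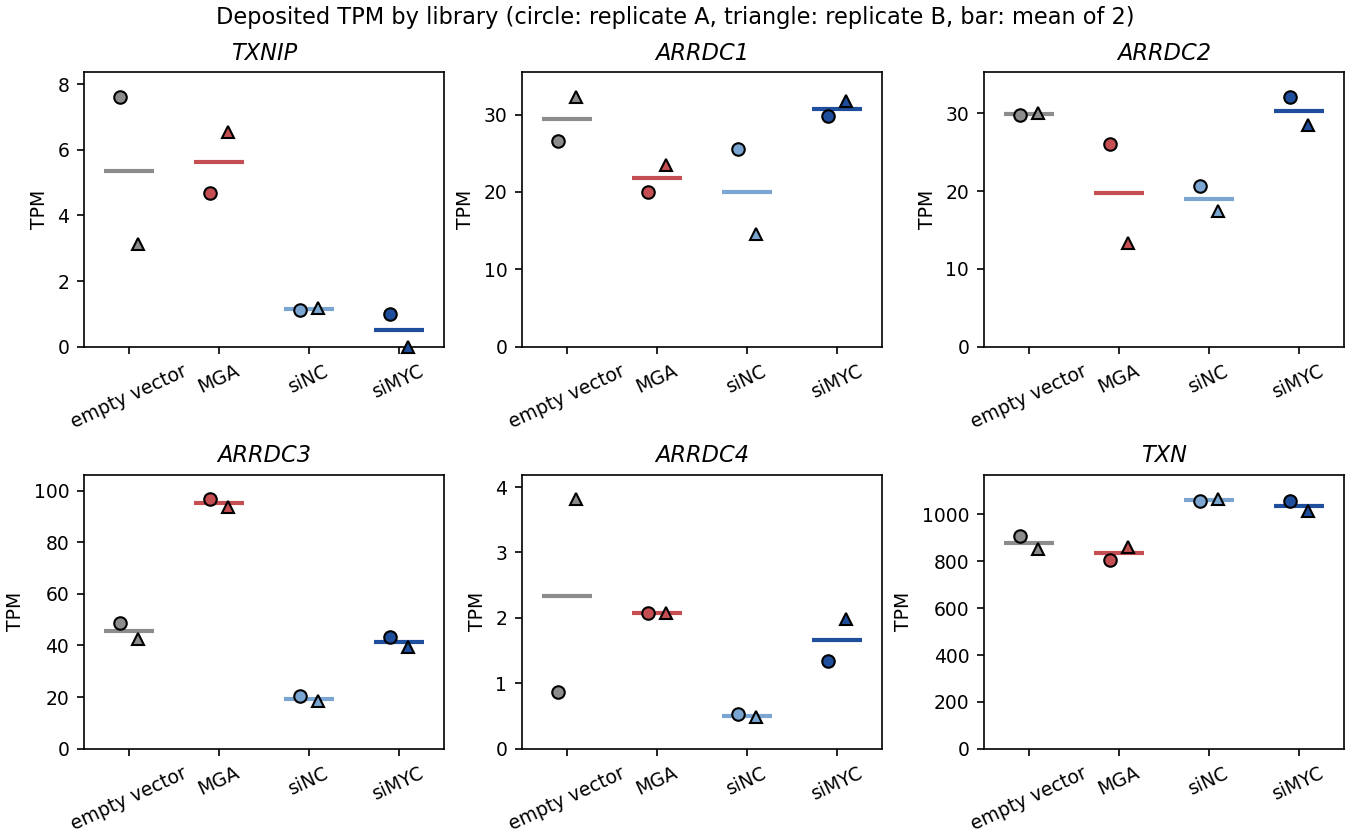
Deposited TPM (y axis, linear, from 0) of the 6 genes in the 4 groups (x axis). Circles are replicate A, triangles replicate B, and bars the mean of 2 libraries. ARRDC3 stands highest in the 2 MGA libraries (93.5 and 96.6 TPM), TXNIP stays below 8 TPM throughout, and TXN spans 807 to 1064 TPM.

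TXNIP, the MondoA target and thioredoxin inhibitor, was close to the detection floor. It had 12 and 5 counts in the empty vector libraries, 6 and 7 in MGA, 3 and 2 in siNC, and 2 and 0 in siMYC. The overexpression libraries were the higher ones although they were sequenced less deeply, and the empty vector and MGA counts overlapped. As TPM, the empty vector libraries stood at 7.61 and 3.12, MGA at 4.68 and 6.56, siNC at 1.12 and 1.18, and siMYC at 1 and 0. In order of group means these are MGA 5.62, empty vector 5.37, siNC 1.15 and siMYC 0.5 TPM, and the ranges of MGA and empty vector overlap. The step between the experiments cannot be told apart from the experiment itself.

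Too few TXNIP reads were present for the filter on low counts, so its libraries were pooled within groups. With 13 counts in MGA and 17 in the empty vector group, the MGA level was 0.665 times the control (exact 95% interval 0.297 to 1.45, counting error only). With 2 counts in siMYC and 5 in siNC, the ratio was 0.327 (0.0312 to 2.0). The MGA value, -0.59 on the log2 scale, turned to 0.15 without empty vector replicate A and to 0.14 on log2(TPM + 1), and the siMYC value of -1.61 was -0.80 without siMYC replicate B. Neither interval leaves out a ratio of 1, so no TXNIP change was detectable at this depth, and a rise past 2.0-fold on MYC silencing lies outside the interval. In an edgeR fit without the filter, which tested 21044 genes, TXNIP gave log2 fold changes of -0.57 (SE 0.61, adjusted p = 0.87) with MGA and -1.48 (SE 1.09, adjusted p = 0.46) with siMYC. It passed the threshold of 0.05 under none of the 9 alternative settings that tested it in each comparison (adjusted p from 0.53 to 1 with MGA and 0.19 to 0.69 with siMYC).

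ARRDC4, the closest TXNIP relative, was as rare. It had 2 and 5 counts in the empty vector libraries, 6 and 2 in MGA, 2 and 1 in siNC, and 7 and 8 in siMYC. Both siMYC libraries were above both siNC libraries, whereas MGA and empty vector overlapped. Pooled, siMYC stood at 3.94 CPM (counts scaled to library size) against 0.963 in siNC, a ratio of 4.09 (exact 95% interval 1.16 to 22.1, counting error only), and MGA against empty vector gave 0.994 (0.315 to 3.22). On the log2 scale the siMYC value of 2.03 was 2.76 without siNC replicate A. The MGA value of -0.01 was 0.82 once empty vector replicate B was left out and -0.82 without MGA replicate A. The siMYC interval excludes 1, but the unfiltered edgeR fit, which includes the spread between replicates, did not call it (log2 fold change 1.93, SE 0.86, adjusted p = 0.10). The MondoA targets TXNIP and ARRDC4 thus gave ratios on opposite sides of 1 with siMYC, at 2 to 15 counts a group, and that difference was not tested.

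ARRDC3, the family member known for bringing NEDD4-type ligases to integrin ITGB4, was the one that rose in both experiments. Replicates A and B held 115 and 100 reads under empty vector, rising to 240 and 174 under MGA. Reads were 80 and 80 in siNC and 233 and 163 in siMYC. Scaled to library size (CPM after TMM scaling), these are 133 and 120, 219 and 203, 57.2 and 46.7, and 107 and 100, so that in each experiment both treated libraries lay above both controls. The log2 fold change was 0.74 with MGA (SE 0.14, 95% interval 0.46 to 1.02, edgeR adjusted p = 0.00062) and 1.01 with siMYC (SE 0.15, 0.71 to 1.31, adjusted p = 2.8e-06). The responses did not differ beyond their error (difference 0.27, SE 0.20, -0.15 to 0.68, adjusted p = 0.39).

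ARRDC3 was the only one of the 4 genes tested that was called with MGA, where 8.96% of 11218 tested genes were called and 4.96% were called higher. With siMYC it was 1 of 2, with 39% of tested genes called and 19% called higher. The group means of ARRDC3 ran from 95.04 TPM in MGA through 45.5 in empty vector and 41.3 in siMYC to 19.5 in siNC, and only empty vector and siMYC overlap. The siMYC call held under every alternative setting run. The MGA call held in each setting based on counts, including each of the 4 fits without 1 library (0.66 to 0.82), but on log2(TPM + 1) it missed the threshold while the estimate was larger (1.05, limma adjusted p = 0.068).

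**Figure D2:**
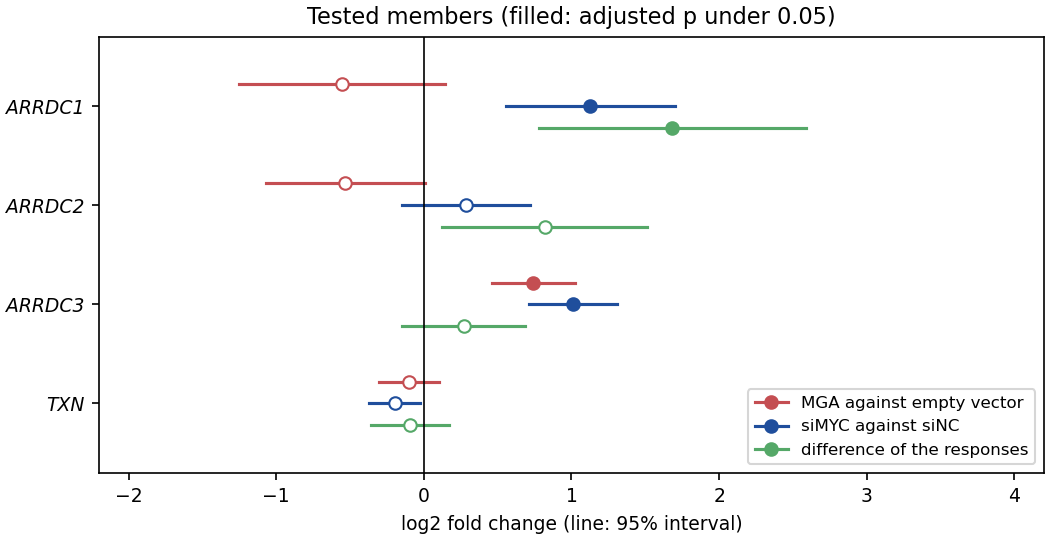
Log2 fold changes (x axis) of the 4 tested genes (y axis) for MGA relative to empty vector, for siMYC relative to siNC, and for the siMYC response minus the MGA response. Points are edgeR estimates, lines 95% intervals and filled points an adjusted p under 0.05. ARRDC3 is right of 0 in both experiments, and ARRDC1 is filled for siMYC (1.13) and for the difference (1.68).

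ARRDC1, which recruits TSG101 to the plasma membrane and drives the budding of small vesicles there, rose with siMYC. It had 21 and 15 counts in siNC and 57 and 40 in siMYC, against 21 and 20 in empty vector and 16 and 16 in MGA. As CPM, siNC replicate B was the lowest library at 8.75 and siNC replicate A stood at 15, below siMYC at 26.2 and 24.5. The empty vector libraries at 24.3 and 24.0 were level with siMYC, and MGA at 14.6 and 18.7 was below them. The log2 fold change was 1.13 with siMYC (SE 0.28, 0.56 to 1.70, adjusted p = 0.0019) and -0.55 with MGA (SE 0.34, -1.25 to 0.14, adjusted p = 0.35). The difference between these responses was 1.68 (SE 0.44, 0.78 to 2.59, adjusted p = 0.0077), and ARRDC1 was the only tested member whose responses were called different, where 18.5% of tested genes were (8.22% with the siMYC response above the MGA response and 10.3% below it).

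The siMYC rise of ARRDC1 rested in part on siNC replicate B, without which it was 0.74 (adjusted p = 0.084). DESeq2 gave 1.16 (adjusted p = 0.074), and TPM gave 0.64 (adjusted p = 0.25). The isoform-weighted length moved with it: RSEM assigned ARRDC1 a mean length of 1046 bases in both siNC libraries and 1620 and 1417 bases in siMYC, and TPM divides by this length. By TPM, siMYC stood at 29.8 and 31.7, empty vector at 26.6 and 32.3, MGA at 20.1 and 23.5, and siNC at 25.6 and 14.5. Of these groups only empty vector lies wholly above the next one, MGA. On the opposite strand ARRDC1 overlaps ARRDC1-AS1 (GENCODE 29), whose counts in these files, under the name C9orf37, were 13 and 17 in siNC and 18 and 12 in siMYC. No source used here says whether counting used strand, so reads of the part shared with ARRDC1-AS1 cannot be told apart. The same holds for ARRDC2 and ARRDC3, which each overlap 1 gene on the opposite strand. ARRDC1 also overlaps AL590627.2 on its own strand (GENCODE 29), for which no counts were matched here. Counting by strand would not separate that overlap.

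**Figure D3:**
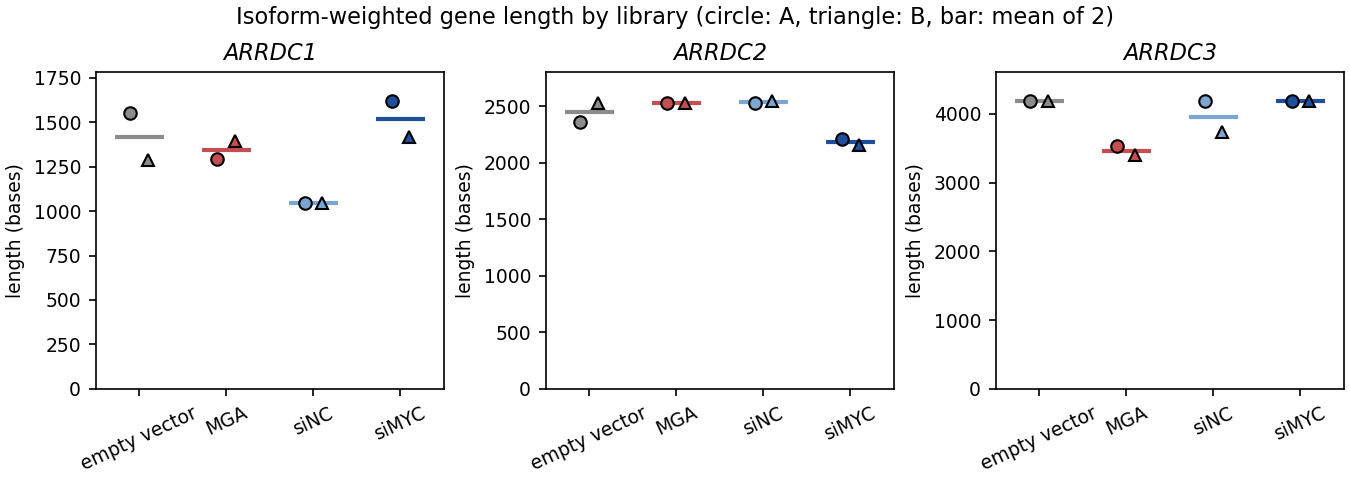
Isoform-weighted gene length in bases (y axis, from 0) of ARRDC1, ARRDC2 and ARRDC3 in the 4 groups (x axis). Circles are replicate A, triangles replicate B and bars the mean of 2 libraries. ARRDC1 is shortest in siNC (1046 bases in both libraries), ARRDC2 in siMYC (2210 and 2158), and ARRDC3 in MGA (3529 and 3397).

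ARRDC2, a less studied family member, passed no test. It had 38 and 41 counts in empty vector, 45 and 18 in MGA, 47 and 50 in siNC, and 87 and 58 in siMYC. MGA replicate B stood apart at 21.0 CPM, against 41.1 in MGA replicate A, 44.0 and 49.2 in empty vector, 33.6 and 29.2 in siNC, and 40.0 and 35.6 in siMYC. The log2 fold change was -0.53 with MGA (SE 0.26, -1.07 to 0.00, adjusted p = 0.23) and 0.29 with siMYC (SE 0.21, -0.15 to 0.72, adjusted p = 0.31). Their difference of 0.82 (SE 0.34, adjusted p = 0.093) was called only with library sizes alone (0.99, adjusted p = 0.040) and without MGA replicate A (1.42, adjusted p = 0.018). By TPM its order was siMYC 30.3, empty vector 29.9, MGA 19.7 and siNC 19.0, and neighbours overlap except empty vector and MGA. Its weighted length was 2523 and 2544 bases in siNC and 2210 and 2158 in siMYC, and in ARRDC3 it was 4188 bases in both empty vector libraries and 3529 and 3397 in MGA.

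TXN, the disulfide reductase that TXNIP binds, was not called. As CPM, both treated libraries lay below both controls in each experiment, but by TPM the ranges overlapped in both. By TPM, MGA stood at 807 and 862 against 908 and 851 in empty vector, and siMYC at 1059 and 1014 against 1058 and 1064 in siNC. The MGA libraries held 351 and 372 CPM against 398 and 377 in empty vector (log2 fold change -0.10, SE 0.10, -0.30 to 0.10, adjusted p = 0.59). The siMYC libraries held 436 and 430 CPM against 489 and 504 in siNC (-0.20, SE 0.08, -0.37 to -0.02, adjusted p = 0.064). The siMYC interval leaves out 0, and the difference of the responses was -0.10 (SE 0.13, adjusted p = 0.67). That interval uses a spread shared by both experiments. On the 4 siRNA libraries alone the siMYC value was -0.20 (edgeR adjusted p = 0.10). With the replicate letter as a block the siMYC value, -0.20, passed (adjusted p = 0.035), while on log2(TPM + 1) it was -0.03 (limma adjusted p = 0.85). Per library, TXN exceeded TXNIP in TPM by 119-fold and 273-fold in empty vector, 172-fold and 131-fold in MGA, and 945-fold and 902-fold in siNC. It did so by 1059-fold in siMYC replicate A, and TXNIP was listed at 0 in replicate B. The empty vector and MGA ratios overlap, and with 2 against 2 libraries an exact permutation test cannot go below p = 0.33.

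Of the MAX network, 10 of 13 genes were tested, among them the MondoA gene MLXIP and its partner MLX, which moved in opposite directions with siMYC. MLXIP stood at 136 and 115 CPM in siNC and 220 and 192 in siMYC (log2 fold change 0.73, SE 0.12, adjusted p = 1.8e-05), and at 92.6 and 102 in empty vector and 90.3 and 77.1 in MGA (-0.20, SE 0.17, adjusted p = 0.54). Its responses differed by 0.93 (SE 0.21, adjusted p = 0.0023). MLX was lower with siMYC (-0.55, SE 0.19, adjusted p = 0.020) and not called with MGA (0.23, SE 0.21, adjusted p = 0.57). The MLX call was lost without siNC replicate A (-0.38) or siMYC replicate B (-0.42), and the other MLX partner gene, MLXIPL, was too low to test.

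In the network as a whole, 3 genes rose and none fell with MGA, and 3 rose and 2 fell with siMYC. These counts include the targeted genes, MGA with MGA and MYC with siMYC, whose calls were fixed by the design. Over all tested genes, 8.96% were called with MGA and 39% with siMYC. This list and those that follow were chosen with earlier results of these data known, so their counts and medians only describe them. The 3 that rose with MGA were MGA itself (9.98), MNT, a MAX-binding repressor (0.99, adjusted p = 0.019), and MYC (0.43, adjusted p = 0.025). The MYC call was lost with library sizes alone (0.30, adjusted p = 0.12), with upper quartiles, with DESeq2, in the TPM fits, and without either empty vector library or MGA replicate B. With siMYC, MXD4, another MAX-binding repressor, rose from 26.4 and 25.7 to 88.7 and 75.5 CPM (1.66, adjusted p = 3.9e-08), MNT rose by 0.51 (adjusted p = 0.036) and MLXIP as above, while MYC and MLX fell. The MGA call of MNT was lost without either empty vector library or MGA replicate B. The MNT call with siMYC was lost without siNC replicate A or either siMYC library, in the unfiltered fit and with DESeq2 (adjusted p = 0.26), where the MLX call was lost too (adjusted p = 0.22). The remaining network genes were not called in either comparison. Their values with MGA and siMYC were 0.51 and -0.18 for MAX, 0.62 and 0.47 for MXD1, 0.28 and -0.85 for MXI1, and -0.39 and 0.75 for MXD3.

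Glucose-induced target genes of MondoA and its relative ChREBP were called in both directions. Of 16 listed genes, TXNIP and ARRDC4 included, 11 were tested, neither of these 2 among them. With MGA 1 rose and 3 fell, where 4.96% of all tested genes were called higher and 4% lower. With siMYC 1 rose and 6 fell, where 19% of all tested genes were called higher and 20% lower. The list's median log2 fold change was -0.36 with MGA and -0.39 with siMYC, against 0.01 in both for all genes tested. KLF10, an early response repressor, was the one that rose, by 0.60 with MGA (SE 0.10, adjusted p = 0.00032) and by 0.32 with siMYC (SE 0.11, adjusted p = 0.024, lost with DESeq2 at 0.086 and without siNC replicate B or either siMYC library). LDHA, which makes lactate and is also a MYC target, fell by 0.85 and by 0.52 on the log2 scale (adjusted p = 4.7e-08 and 1.6e-06). The lipid synthesis genes FASN, ELOVL6 and ACACA were lower with siMYC (-1.10, -0.87 and -0.39), and with MGA FASN (-0.42) and SCD (-0.41) were lower. FASN lost the MGA call without empty vector replicate B or either MGA library, SCD without empty vector replicate A or MGA replicate B, and ACACA the siMYC call without siNC replicate B. These genes answer to other regulators too, and in fits without 1 library 1 or 2 genes fell with MGA and 4 or 5 with siMYC.

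Glucose entry is the step on which TXNIP acts. Of 17 hexose transporters and hexokinases 10 were tested, and 3 rose and 1 fell with siMYC while 1 rose with MGA, shares near the 39% and 8.96% of all tested genes. SLC2A1, the main basal glucose transporter and a TXNIP cargo, went from 198.6 and 228 CPM in siNC to 312 and 349 in siMYC (0.62, SE 0.10, adjusted p = 2.2e-05), and was level between MGA and empty vector (-0.04, SE 0.15, adjusted p = 0.91). Its responses differed by 0.66 (SE 0.18, adjusted p = 0.010, and 0.12 without empty vector replicate A). HK1 (0.53) and the transporter SLC2A6 (0.60) also rose with siMYC, and HKDC1 rose with MGA (0.70, adjusted p = 0.0088). The HK1, SLC2A6 and HKDC1 calls were lost with DESeq2 (adjusted p from 0.066 to 0.25). HKDC1 lost its call without either empty vector library or MGA replicate A, HK1 without siMYC replicate A, and SLC2A6 without siMYC replicate A or siNC replicate B. HK2, the inducible hexokinase, had 7 and 4 counts in siNC and 1 and 0 in siMYC.

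Of the thioredoxin system, 19 of 20 genes were tested, and none was called with MGA by edgeR or DESeq2, although the number with an unadjusted p under 0.05 was 4 and 3 were called lower with library sizes alone. With siMYC 3 rose and 4 fell, a share near the 39% of all tested genes called, and the median change was -0.02. The methionine sulfoxide reductases MSRB3 (20.7 and 28 CPM in siNC, 67.1 and 68.7 in siMYC; 1.46, adjusted p = 4.9e-07) and MSRB2 (1.25, adjusted p = 0.0020) rose. PRDX4, the peroxiredoxin of the secretory pathway (-0.94, adjusted p = 1.2e-06), and SRXN1, which repairs oxidised peroxiredoxins (-0.48, adjusted p = 0.00050), fell. The MSRB2 call was lost with DESeq2 (adjusted p = 0.091), and without 1 library 2 rose and 2 to 4 fell.

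All 9 NEDD4-family ligases, the enzymes that alpha-arrestins recruit, were tested, and 4 rose and none fell with MGA. SMURF2 went from 86.8 and 79.1 CPM in empty vector to 160 and 134 in MGA (0.83, SE 0.17, adjusted p = 0.0014). ITCH went from 77.6 and 77.9 to 130 and 114 CPM (0.66, SE 0.16, adjusted p = 0.0083), and NEDD4 (0.54) and SMURF1 (0.52) rose too. The median was 0.44, against 0.01 for all tested genes, of which 8.96% were called with MGA and 4.96% were called higher. As the list was chosen with earlier results of these data known, these values are a description and no test. With siMYC, SMURF1 (0.52) and NEDD4 (0.32) rose and ITCH fell (-0.34, adjusted p = 0.040, lost under the other scalings). These siMYC calls are a share near the 39% of all tested genes called. The responses differed for SMURF2 (-1.13, SE 0.23, adjusted p = 0.00078) and ITCH (-1.0, SE 0.21, adjusted p = 0.00097). The MGA count of 4 was 2 with library sizes alone, 1 with DESeq2, and 0 to 2 in fits without 1 library. SMURF2 lost its MGA call without MGA replicate A, ITCH without that library or either empty vector library, and NEDD4 and SMURF1 without any 1 of the 4. With siMYC, SMURF1 was lost without siNC replicate A and NEDD4 without siNC replicate B or siMYC replicate A. NEDD4 with MGA was -0.15 on log2(TPM + 1).

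Of the known partners and cargo of these proteins, 7 of 10 were tested. With MGA 1 rose, where 8.96% of all tested genes were called, and with siMYC 4 rose and 1 fell, where 39% were. TSG101, the budding factor that ARRDC1 binds, was called higher with MGA (0.58, adjusted p = 0.023) and with siMYC (0.47, adjusted p = 0.011), and lost both calls with DESeq2 (adjusted p = 0.18 and 0.11). It also lost the MGA call without either empty vector library or MGA replicate A, and the siMYC call without siNC replicate B or siMYC replicate B. ITGB4, an ARRDC3 cargo, rose with siMYC (1.29, SE 0.16, adjusted p = 3.6e-07) and not with MGA (-0.28, SE 0.17, adjusted p = 0.34), and these responses differed by 1.56 (adjusted p = 2.2e-05). With siMYC, SLC2A1 and DDIT4 (0.34) also rose, and SLC11A2, an iron transporter that ARRDC proteins regulate, fell (-0.91, adjusted p = 3.9e-05). Of 9 other genes with an arrestin fold 6 were tested. With MGA none was called by edgeR or DESeq2 (unadjusted p under 0.05 in 1). With siMYC RGP1, a trafficking factor, rose (0.61) and beta-arrestin ARRB2 fell (-0.61), a share near the 39% of all tested genes called. Both calls were lost with DESeq2, that of ARRB2 also without siNC replicate B or siMYC replicate A.

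Among genes that FOXO factors and growth factor withdrawal are known to raise, all that were called rose. Of 12 such genes 10 were tested, 4 rose and none fell with MGA, and 6 rose and none fell with siMYC. The medians were 0.68 and 0.61, against 0.01 in both for all genes tested. Because this list, too, was chosen with earlier results of these data known, its counts and medians are no test of it. Among all tested genes, 8.96% were called with MGA (4.96% higher) and 39% with siMYC (19% higher). SESN1 went the other way with siMYC without being called (-0.81, SE 0.36, adjusted p = 0.072). The responses were called different for SESN1 (-1.40, adjusted p = 0.049) and FOXO3 (-0.82, adjusted p = 0.048). CDKN1B, a CDK inhibitor, rose in both (0.75, adjusted p = 0.0098; 0.62, adjusted p = 0.0042), as did KLF6 (0.73 and 0.61). FOXO3 rose with MGA (0.95, adjusted p = 0.0059) and CCNG2 with siMYC, from 4.29 and 6.41 to 23.0 and 33.1 CPM (2.32, SE 0.34, adjusted p = 3.7e-06). CITED2 rose with MGA (0.59, adjusted p = 0.048) and IRS2 with siMYC (0.48, adjusted p = 0.010). DESeq2 called none of them with MGA and 1 with siMYC, and in fits without 1 library 0 to 3 rose with MGA and 1 to 5 with siMYC. CDKN1B and FOXO3 lost the MGA call without empty vector replicate A or MGA replicate A, and CDKN1B lost the siMYC call without siNC replicate B. KLF6 lost it without siNC replicate B or siMYC replicate A, as did IRS2. KLF6 lost the MGA call without either empty vector library or MGA replicate A, and CITED2 without any 1 of the 4.

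Glucocorticoids are known to raise TXNIP in several cell types, and 8 of 9 other glucocorticoid-induced genes were tested. PER1, a clock repressor, was lower with MGA (-1.33, SE 0.35, adjusted p = 0.016) and was the only one called, where 8.96% of all tested genes were. With siMYC 4 rose, among them TSC22D3 (0.94, adjusted p = 0.0020), DUSP1 (0.38, adjusted p = 0.0042) and DDIT4 (0.34, adjusted p = 0.0064), while FKBP5 fell (-0.60, adjusted p = 0.012). In that comparison 39% of all tested genes were called, 19% higher and 20% lower. The PER1 call was lost without empty vector replicate B or either MGA library, DUSP1 without siNC replicate A or siMYC replicate A, FKBP5 without siNC replicate B or siMYC replicate A, and DDIT4 without siMYC replicate A. DESeq2 called 2 higher and none lower with siMYC, and 2 to 4 rose and 0 or 1 fell without 1 library.

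**Figure D4:**
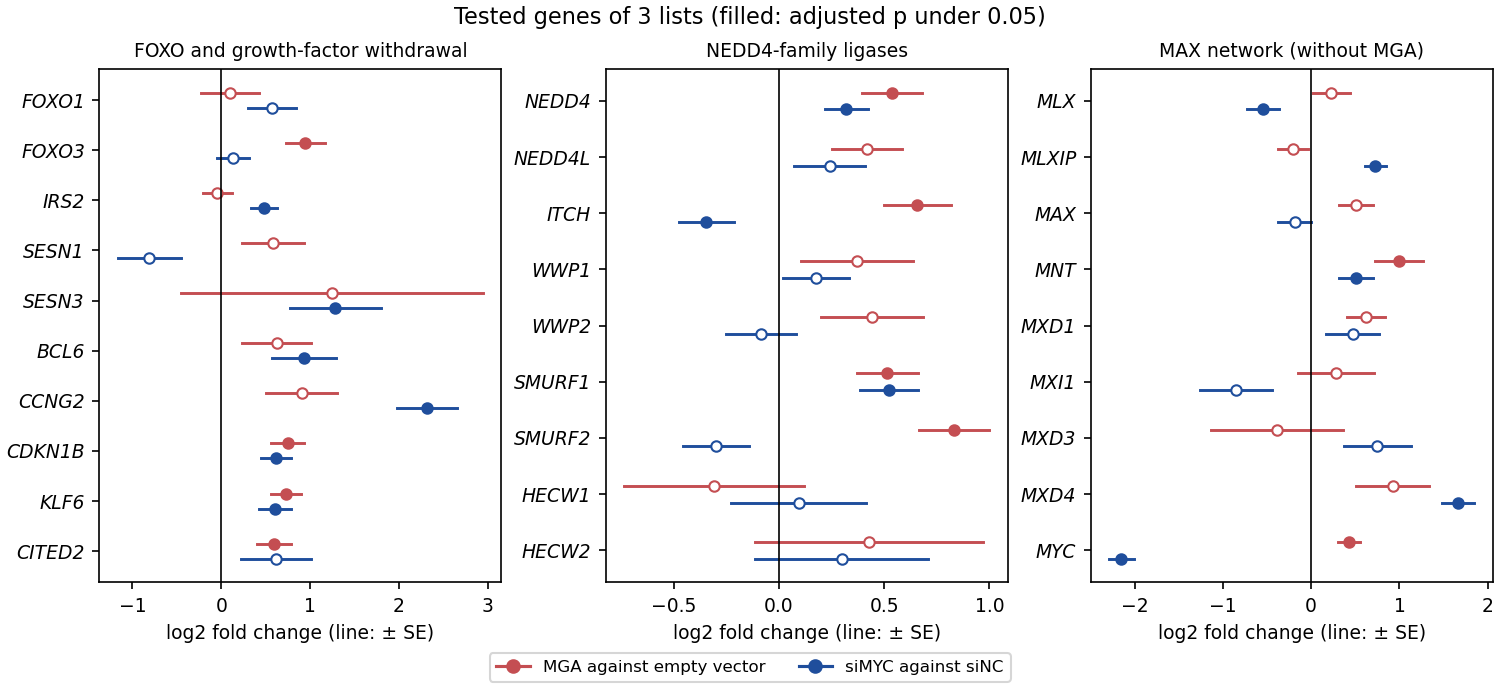
Log2 fold changes (x axis) of the tested FOXO and growth factor withdrawal genes, NEDD4-family ligases and MAX network genes (y axes), for MGA against empty vector and siMYC against siNC. Points are edgeR estimates, lines ± SE, and filled points an adjusted p under 0.05. CDKN1B and KLF6 lie right of 0 in both, SMURF2 and ITCH lie right of 0 with MGA and left with siMYC, and MLX and MLXIP are on opposite sides with siMYC.

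The genes most like TXNIP over the 8 libraries were sought among 9031 genes by the root-mean-square difference of centred log2 CPM. They were BIRC3 (0.34), CYR61 (0.35), DIO2 (0.36), SOD2 (0.37) and MLKL (0.38), beside a spread of 1.07 in TXNIP itself. Each stood higher in the overexpression experiment than in the siRNA experiment, for example SOD2 with means of 861 and 928 CPM against 289 and 144. For ARRDC4 they were TCN2 (0.20), RRNAD1 (0.26), FBXL20 (0.27), TRPM4 (0.28) and LURAP1L (0.28). TXNIP and ARRDC4 had 37 and 33 counts in all, so both rankings rest on few reads. For ARRDC3, with 1185 counts and added after the data were seen, they were ZMYM5 (0.13), PPP1R18 (0.14), TNFAIP2 (0.14), BTG1 (0.16) and TAB2 (0.16). BTG1, an antiproliferative gene, rose by 0.62 with MGA (adjusted p = 0.0019) and 0.76 with siMYC (adjusted p = 2.5e-05), and TNFAIP2 by 0.67 and 0.71. That likeness follows from how the genes were picked and is a description.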

How the data were processed

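Poly(A)-selected RNA of A549 cells was sequenced in 8 libraries. Per the submitters' processing notes, STAR and RSEM were used with the hg19 build. Tool versions and the gene annotation were not stated in the sources read. Each library's deposited table holds, per the file headers, RSEM's expected counts, TPM, FPKM and isoform-weighted gene length. The deposited expected counts are estimates that divide shared reads (96.7% were whole numbers). The deposited TPM values are scaled to library and length, and the deposited FPKM values were used only for the TXN to TXNIP ratio.

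Expected counts were rounded, filtered with filterByExpr (minimum count 10, minimum total 15), scaled by TMM and fitted in edgeR 4.0.16 (R 4.3.3), with 4 groups, 4 residual degrees of freedom and the quasi-likelihood F test. P-values were Benjamini-Hochberg adjusted over 11218 genes, and a gene was called under 0.05. SE is the fold change divided by the square root of F. All groups share an estimate of spread in this fit, although the experiments differed in it. The common biological coefficient of variation (relative spread between replicates) was 0.0343 in the overexpression libraries and 0.0725 in the siRNA libraries. In the joint fit it was 0.0623. Fits of only the 4 libraries of a comparison called 1381 genes with MGA and 4135 with siMYC. Fits were tested on simulated data. TXNIP and ARRDC4 did not pass the filter and were described by pooled counts with exact binomial intervals at 95%, chosen after seeing the data. A limit of 3 counts, the most that a count of 0 allows, is 1.41 to 3.66 CPM here. Alternatives used DESeq2 1.42.0 and limma 3.58.1 on log2(TPM + 1).

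Named genes are all 6 members, in each of 9 lists and comparisons up to 4 called genes with the smallest p, the tested MAX network genes, and the 5 nearest profiles among genes of average log2 CPM of at least 4 (prior count 2). TXN in the thioredoxin list and TXNIP and ARRDC4 in the MondoA and ChREBP target list are also members. Members and lists were chosen with earlier results of these data known. Replicates differed by more than sampling noise (chi-square per degree of freedom from 1.13 to 1.85). Replicate letters were not taken to pair libraries in the main fit. Over 9031 genes, A minus B differences correlated at -0.04 between empty vector and MGA. Between siNC and siMYC they correlated at 0.19, so replicates there may share a difference that the main fit did not model. Reference promoters are GRCh38.p14, another build than the files, so no peak or read was placed on them.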

Additional observations from a re-analysis of the deposited data

Results flagged for a closer look

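ARRDC1 responded differently in the 2 experiments by the test of the difference itself. The siMYC response minus the MGA response was 1.68 on the log2 scale (edgeR adjusted p = 0.0077), from a rise of 1.13 with siMYC and a value of -0.55, not called, with MGA. ARRDC1 was the one of 4 tested members with such a difference, where 18.5% of all tested genes were called different. The call was lost without siNC replicate B (1.3, adjusted p = 0.051), without MGA replicate A (1.49, adjusted p = 0.054) and on log2(TPM + 1) (1.06, adjusted p = 0.26).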

How the results depend on the processing

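The number of members called with MGA, 1, became 0 on log2(TPM + 1), on log2(TPM + 0.1) and on unfiltered TPM, and stayed 1 in all other settings, including each fit without 1 library (1 to 1). With siMYC it was 2, against 1 with DESeq2 and in the 3 TPM fits, and 1 to 2 without 1 library. For the difference it was 1, against 0 with DESeq2 (which gave ARRDC1 no adjusted p) and in the TPM fits, 2 with library sizes alone, and 0 to 1 without 1 library. Over all genes, 1005 calls with MGA became 343 with DESeq2, 68, 83 and 40 in the TPM fits and 402 to 474 without 1 library. The 4370 siMYC calls became 1967, then 968, 937 and 837, and 3299 to 3847. The 2076 calls of the difference became 812, then 213, 203 and 134, and 1309 to 1937. The main fit called 8.96% of 11218 tested genes with MGA, 39% with siMYC and 18.5% for the difference. Beside these shares, it called 1, 2 and 1 of the 4 tested members. Library sizes alone moved the median change with MGA from 0.01 to -0.12 and the split of 556 higher and 449 lower to 300 and 821 (387 and 628 with upper quartiles). For the difference, 922 higher and 1154 lower became 1357 and 714, 1188 and 804 with upper quartiles, and 1101 and 892 without the MGA gene. With the replicate letter as a block, which the main fit left out, calls numbered 1176, 4657 and 2292, and TXN joined the siMYC calls. On expected counts the mean log2 ratio of TXN to TXNIP was 5.41 rather than 7.50 in empty vector and 5.75 rather than 7.23 in MGA, since lengths are then not divided out. NEDD4 reversed with MGA on TPM (-0.15 in each TPM fit). The cause of the lost calls was not tested. Among other named genes, 512 of the alternative values lost a call, 32 gained one and 3 reversed. At these depths TXNIP and ARRDC4 cannot show changes smaller than their intervals.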
